A study of Homo sapiens with 6 samples.

Results

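The HOX genes are homeobox transcription factors that stand in 4 compact clusters, HOXA on chromosome 7, HOXB on chromosome 17, HOXC on chromosome 12 and HOXD on chromosome 2. The set examined held 38 HOX genes out of 20037 protein-coding genes in the gene table: 10 in HOXA, 10 in HOXB, 9 in HOXC and 9 in HOXD. Peaks were taken from the first to the last of these genes in each cluster, with 50 kb added on either side, in coordinates of build hg38. These windows held 34 of the 43677 listed CTCF peaks and 3 of the 78694 listed H3K27ac peaks.

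The data came from chromatin immunoprecipitation and sequencing of neurons. They were grown from neural progenitors of the cell line KOLF2.1J, a reference line of human induced pluripotent stem cells. All 6 libraries came from this 1 line and were labelled as neurons, with no treatment: 2 with an antibody to CTCF, 2 with an antibody to H3K27ac and 2 input libraries made with no antibody. The progenitors were matured in BrainPhys, a neuronal culture medium, and the labels do not say whether the libraries of an antibody came from separate cultures. Each antibody has 1 deposited peak list that joins its 2 libraries. The spread between replicates is therefore not known, no test between samples was possible, and read depth is unknown.

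The paralog number of a HOX gene gives its place in the cluster. Genes of low number are used at the front of the body axis, in the hindbrain, and genes of high number further back, in the spinal cord and hindlimb, while forebrain and midbrain normally keep the clusters silent under Polycomb repression. CTCF, a zinc finger protein that together with cohesin anchors chromatin loops, binds several places inside the clusters, where its sites are known to separate active from repressed stretches. Acetylation of lysine 27 on histone H3 (H3K27ac) marks promoters and enhancers in use, so the pair of lists shows where the clusters carried a mark of activity and where they carried candidate boundaries.

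H3K27ac was almost missing from the HOX clusters. Of the 38 genes, HOXB2 alone shared at least 1 bp with an H3K27ac peak, a share of 2.63% (exact 95% binomial interval 0.0666 to 13.8%, counting error only). Across all protein-coding genes the share was 68.8%, and it was 62.6% among the 12260 whose length lay within the range of the HOX genes (1.68 to 45.6 kb). HOX genes are neighbours of one another and share surroundings, so they are not 38 independent observations.

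The 3 H3K27ac peaks of the windows lay in or beside HOXB2, a gene of rhombomere identity in the hindbrain. Its annotated interval runs on chromosome 17 from 48542655 to 48545109. The peak inside the gene spanned 48543528 to 48543750 (fold enrichment 4.61, −log10 q 3.69). The other 2 ran from 48541921 to 48542050 (fold enrichment 4.84, −log10 q 4.56) and from 48542148 to 48542270 (fold enrichment 3.45, −log10 q 2.1), between HOXB1 and HOXB2. They were narrow, at 223, 130 and 123 bp, against a list median of 356 bp. Their fold enrichments stood at percentiles 47.5, 50.9 and 21.7 of the list, whose median was 4.74. The HOXB2 peaks, as the 3 are called here, were thus of middling or low enrichment for the list. The start of HOXB2 was not available, so whether any of them lay at its promoter was not tested. With 100 kb in place of 50 kb on either side, the windows held 9 H3K27ac peaks, and with the strongest 50% of the list they held 1. The cells were measured in bulk, so a mark in few cells and a weak mark in all of them cannot be told apart. Together the 3 peaks covered 476 bp of 920.6 kb in the 4 windows (0.0517%). In windows of 100 kb either side of a protein-coding gene's middle, the median coverage was 2.17%.

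The other HOX genes lay far from the mark. In HOXB the next nearest genes were HOXB3, 5.12 kb from the HOXB2 peaks, and HOXB1, 10.9 kb from them, while HOXB13, a gene of the hind end of the axis, was 90 kb from any H3K27ac peak. In HOXA the distance grew from 71.3 kb at HOXA2 to 165.3 kb at HOXA13. In HOXD it was 78.2 kb at HOXD1, 126.8 kb at HOXD8 and 84.6 kb at HOXD13, and in HOXC it ranged from 107.9 kb at HOXC4 to 173.6 kb at HOXC10. The median distance over the 38 genes was 109.9 kb, and over all protein-coding genes it was 0 kb because most overlap a peak. Within 100 kb either side of the gene's middle, 24 of the 38 HOX genes had no H3K27ac peak (63.2%), against 9.32% of all protein-coding genes. These 24 were all 9 genes of HOXC, 9 of 10 in HOXA and 6 of 9 in HOXD, and none in HOXB.

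**Figure D1:**
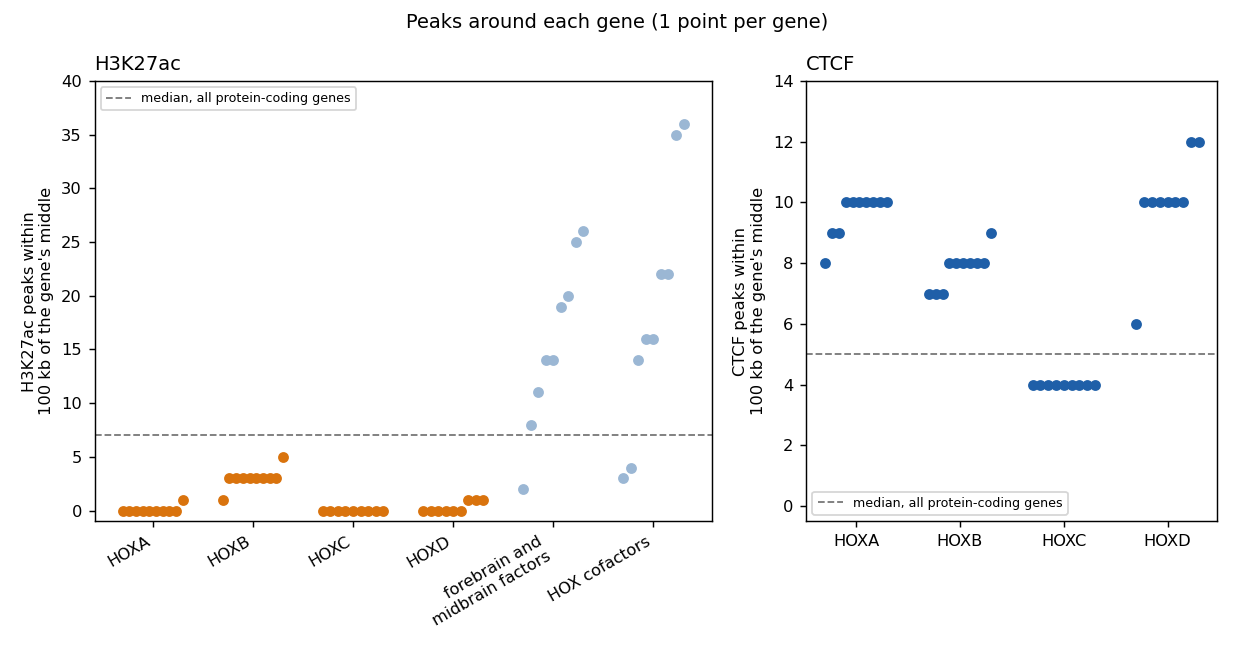
Number of H3K27ac peaks (left) and CTCF peaks (right) within 100 kb either side of the middle of each gene, with 1 point per gene; the dashed lines are the medians over all protein-coding genes, 7 H3K27ac peaks and 5 CTCF peaks. HOX genes had between 0 and 5 H3K27ac peaks and between 4 and 12 CTCF peaks, and their points within a cluster share peaks.

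Each cluster sat in a long stretch free of H3K27ac peaks. For HOXA this stretch ran from 27029039 to 27586719 (557.7 kb) and held all 10 HOXA genes examined and 11 CTCF peaks. For HOXC it measured 360.7 kb, from 53803239 to 54163910, and held all 9 genes with 4 CTCF peaks. For HOXD it measured 266.2 kb, from 176002893 to 176269092, and held all 9 genes with 10 CTCF peaks. The HOXB stretch began at the HOXB2 peak, ran from 48543751 to 48818721 (275.0 kb) and held the 8 genes from HOXB3 to HOXB13 with 12 CTCF peaks. Only 0.6% of the 78670 intervals between neighbouring H3K27ac peaks were longer than that of HOXA, and 2.35% were longer than that of HOXD, the shortest of the 4. The median interval was 3.57 kb. These stretches were picked because they hold a cluster, which only a long interval can do, whereas the shares count every interval alike. The shares therefore do not measure how rare such a stretch is around a given place.

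The peaks that bounded these stretches differed between clusters. On both sides of HOXD they were strong: a peak of 1832 bp overlapping LNPK (fold enrichment 15.8, percentile 89.4) lay 84.6 kb from HOXD13, and a peak overlapping MTX2 (fold enrichment 28.3, percentile 96.3) lay 78.2 kb from HOXD1. Both genes are known as the neighbours that frame the HOXD cluster. HOXA was bounded by weaker peaks, with a fold enrichment of 5.77 on the side of SKAP2 and 3.68 over HIBADH, 386.6 kb beyond HOXA13. HOXC was bounded by a peak of fold enrichment 2.49 beyond HOXC13 with a −log10 q of 1.13, and by a peak of 6.16 over SMUG1. Above HOXB13 the next peak lay between TTLL6 and CALCOCO2 with a fold enrichment of 5.45, and below HOXB1 the next outside the cluster overlapped SKAP1 with 5.15.

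Noncoding genes that lie among the HOX genes also lacked the mark. None of the 18 examined overlapped an H3K27ac peak (exact 95% binomial interval 0 to 18.5%). Of these, 13 were long noncoding RNA genes of 0.844 to 16 kb and 5 were microRNA genes of 0.07 to 0.11 kb. Across the genome, 27.6% of long noncoding RNA genes and 9.7% of microRNA genes in those ranges of length overlapped a peak. They included HOTAIRM1, a myeloid and neuronal transcript of the HOXA front end, HOTTIP and HOTAIR, which have been linked to chromatin regulators, and the genes of the microRNAs miR-10 and miR-196, which act on HOX messages. HOXB-AS1 came closest, 0.6 kb from a HOXB2 peak, and HOXC-AS3 was farthest at 178.4 kb. Of the homeobox genes EVX1 and EVX2, which border the high-number ends of HOXA and HOXD, neither overlapped a peak; the nearest was 213.8 kb from EVX1 and 74.6 kb from EVX2.

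CTCF peaks, in contrast, lay in all 4 clusters. HOXA, HOXB and HOXD had 10 peaks each in their windows and HOXC had 4. Per 100 kb this was 5.01 in HOXA, 4.92 in HOXD, 3.33 in HOXB and 1.84 in HOXC. In windows of 100 kb either side of the gene's middle, the median was 8 CTCF peaks over the HOX genes and 5 over all protein-coding genes. The HOXC genes had 4 each, below that median, and all genes of HOXA, HOXB and HOXD had 6 or more.

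**Figure D2:**
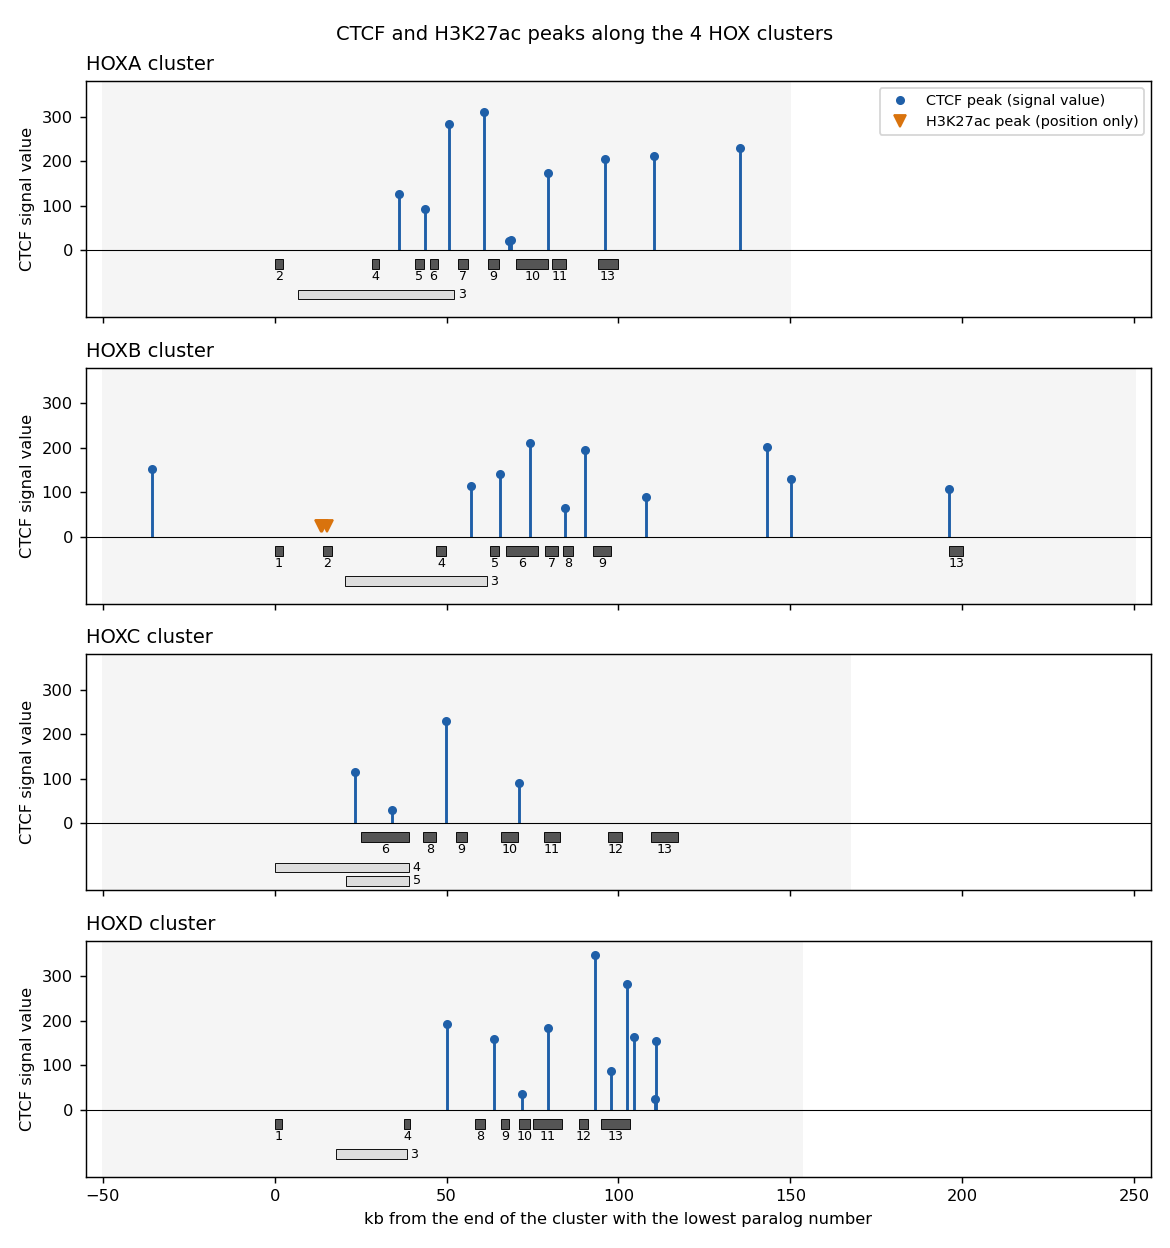
CTCF peaks (blue, height is the authors' signal value) and H3K27ac peaks (orange triangles, position only) along each cluster, by distance in kb from the end with the lowest paralog number. Dark boxes are HOX genes labelled by paralog number, pale boxes the 5 gene models over 15 kb, and the grey ground is the window. The 3 H3K27ac triangles lie in or beside HOXB2. Within the clusters the CTCF peaks of HOXA, HOXB and HOXD lie past paralog 4.

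The CTCF peaks of the clusters mostly had signal values above the list's median. Their own median was 154.1, against 91 in the whole list, and 25 of 34 (73.5%) lay above the list's median. The top of the list was less enriched for them: 4 of 34 (11.8%) were in its strongest 10% and 9 of 34 (26.5%) in its strongest 20%. The highest, 346.6 at percentile 98.8, lay between HOXD12 and HOXD13 from 176097499 to 176098005. In HOXA the highest signal value belonged to a peak between HOXA7 and HOXA9 from 27160873 to 27161389 (signal value 310.1, percentile 96.4). A peak between HOXA6 and HOXA7 from 27150742 to 27151230 followed (284.2, percentile 93.8), and a peak beyond HOXA13, from 27235282 to 27235773, had 228.8. The next in HOXD was a peak in HOXD13, from 176088234 to 176088717, at 283.5, and one between HOXD4 and HOXD8 from 176140437 to 176140931 had 192.0.

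HOXB and HOXC held no peak in the strongest 10% of the list. In HOXB the first 3 were a peak in HOXB6 from 48602535 to 48602988 (signal value 211.8), one between HOXB9 and HOXB13 from 48671589 to 48672051 (201.4) and one between HOXB8 and HOXB9 from 48618509 to 48618982 (195.8). In HOXC the strongest lay between HOXC8 and HOXC9 from 54005901 to 54006353 (230.7), followed by a peak within the HOXC4 and HOXC5 gene models from 54032546 to 54032927 (115.5) and one at HOXC10 from 53984825 to 53985196 (91). The signal values do not carry an error, since each is 1 value for both libraries.

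**Figure D3:**
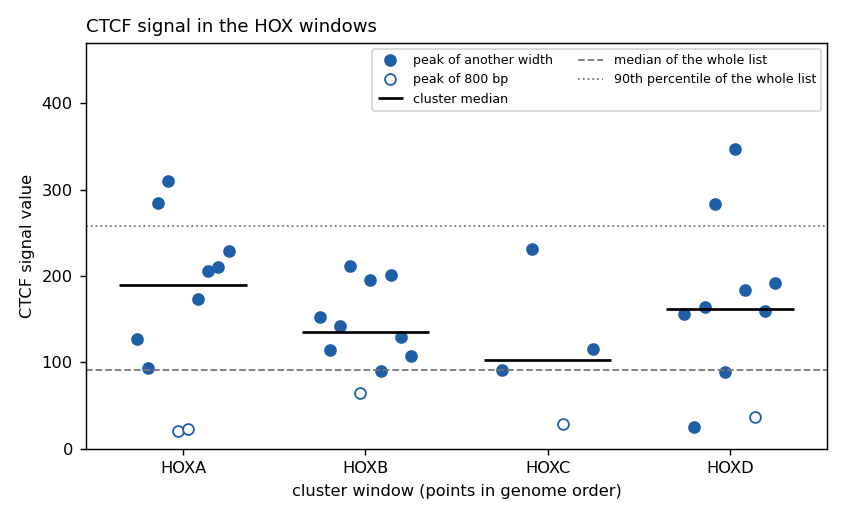
Signal value of each CTCF peak in the 4 cluster windows, with the cluster medians (189.3 in HOXA, 135.5 in HOXB, 103.2 in HOXC and 161.7 in HOXD) as black lines and the median (91) and 90th percentile (257.4) of the whole list as grey lines. Open points are peaks of 800 bp, which lie below the list's median in every cluster.

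Weak peaks of a single width were few. A width of 800 bp belonged to 5 of the 34 peaks (14.7%), against 33.4% of the whole list, where such peaks had a median signal value of 35.9. Of these 5, 2 overlapped each other between HOXA9 and HOXA10 (signal values 20.3 and 22.7), and the others lay in HOXB8 (64.5), HOXC6 (29.1) and HOXD10 (36.8). The remaining weak entry, at EVX2, had a width of 331 bp and a signal value of 25. The −log10 q of 29 of the 34 peaks was 4.78, the highest value in the list and also its median, so it does not rank them.

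The share of HOX genes with a CTCF peak was near that of genes in their range of length. CTCF overlapped 14 of the 38 genes (36.8%, exact 95% binomial interval 21.8 to 54%), against 55.4% of all protein-coding genes and 44.8% of those within the same range of length, a value inside that interval. The genes of that range had a median length of 13.8 kb, against 3.79 kb for the HOX genes. With HOX gene models over 15 kb left out, 10 of 33 HOX genes overlapped a CTCF peak (30.3%), and no matching share of other genes was computed. HOX genes can share a peak: that from 54021434 to 54022233 overlapped HOXC4, HOXC5 and HOXC6. The interval does not allow for this. Many peaks lay in the spaces between genes: of 29 such spaces, 15 held at least part of a CTCF peak (51.7%). A peak across a gene's edge, as at HOXA10, HOXC10 and HOXB13, counted for both the gene and the space. This is close to the 48.7% found in 12171 spaces of 1.1 to 98.4 kb between neighbouring protein-coding genes, whose median length was 16.4 kb against 5.86 kb between HOX genes.

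The distance to CTCF was also read by paralog number. HOXA3, HOXB3, HOXC4, HOXC5 and HOXD3 have gene models of 18.5 to 45.6 kb that reach across other HOX genes, and values are given with and without them. Over all 11 genes of paralogs 1 to 4, 3 overlapped a CTCF peak (HOXA3, HOXB3 and HOXC4, all with long models) and the median distance to one was 10.6 kb. Of the 7 left in that class, none overlapped a CTCF peak, and their median distance was 33.7 kb, with a range of 5.6 to 47.7 kb; HOXC has no gene among them. Among paralogs 5 to 8, 4 of 11 overlapped a peak with a median distance of 0.067 kb, and without HOXC5 3 of 10 did, with a median of 0.679 kb and a highest value of 2.63 kb. Among paralogs 9 to 13, 7 of 16 did, with a median distance of 1.04 kb and a highest value of 38.3 kb at HOXC13. The ranges of paralogs 1 to 4 and of 5 to 8 overlapped with the long models in and did not with them out. The split by paralog number was made after the positions had been seen, so it is a description.

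The front ends of HOXA, HOXB and HOXD were free of CTCF peaks over long distances. HOXA2 and HOXA4 lay in a stretch of 282.2 kb without a CTCF peak, which ended at 27136359 between HOXA4 and HOXA5. HOXD1, HOXD3 and HOXD4 lay in a stretch of 314.0 kb, and HOXB1, HOXB2 and HOXB4 in one of 92.4 kb. HOXC had peaks within the long HOXC4 and HOXC5 gene models. The frontmost ended at 54032927, with its summit 23.3 kb inside the cluster, and no CTCF peak followed up to 54163910, beyond the cluster. That front stretch was not measured, since only stretches holding several whole HOX genes were. At the opposite end, HOXC11, HOXC12 and HOXC13 lay in a stretch of 192.5 kb. Of all intervals between merged CTCF peaks, 3.25% were longer than that of HOXD and 4.07% than that of HOXA. For the stretch of HOXC11 to HOXC13 it was 8.06%, and for that of HOXB 21.4%. Since the stretches were picked for holding several whole HOX genes, these shares do not measure how rare they are.

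Some comparable spaces carried CTCF peaks in each cluster that has them, and others differed between clusters. The space between the paralog 9 gene and its next neighbour of lower number held 1 peak in all 4 clusters. The signal value there was 310.1 between HOXA7 and HOXA9, 195.8 between HOXB8 and HOXB9, 230.7 between HOXC8 and HOXC9 and 159.2 between HOXD8 and HOXD9. It was the strongest peak of its window in HOXA and HOXC but not in HOXB or HOXD. The space between paralogs 4 and 5 held a peak in HOXA (127.0) and HOXB (113.8), and so did the space between paralogs 5 and 6 (93.8 in HOXA and 141.9 in HOXB). In HOXD, which has no paralog 5 or 6, the wide space between HOXD4 and HOXD8 held the peak of 192.0. Other spaces differed: that between paralogs 9 and 10 held 2 peaks in HOXA and none in HOXC or HOXD. Between paralogs 10 and 11 there was 1 in HOXA and 1 in HOXC but none in HOXD. Both of these peaks crossed the edge of the paralog 10 gene and lay partly in HOXA10 and in HOXC10. Between paralogs 12 and 13 there was a peak of 346.6 in HOXD and none in HOXC. CTCF sites between paralogs 5 and 6 and between 7 and 9 of HOXA are known from motor neurons as edges of active chromatin. Here no HOXA gene on either side of them overlapped an H3K27ac peak.

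The genes of paralog 13, which act in the limb ends and the hindgut and genital region, also differed between clusters. CTCF peaks lay in HOXA13 (signal value 205.3), in HOXB13 (107.2) and at 2 places in HOXD13 (283.5 and 88.4), whereas the nearest peak to HOXC13 was 38.3 kb away. Around HOXD13, 5 merged CTCF peaks fell within 18.2 kb, from 176079768 in EVX2 to 176098005 between HOXD12 and HOXD13. Of the 41326 merged CTCF peaks of the genome, 0.615% began a stretch of 20 kb with as many or more. The HOXD stretch was picked as the densest of its window, whereas this share counts every peak as a start. It therefore does not measure how rare such a densest stretch is. The densest such stretch held 3 peaks in HOXA and in HOXB and 2 in HOXC.

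Promoter sequences were examined for the 20 HOX genes with an entry in the RefSeq promoter table of GRCh38.p14, which covers 250 bases before to 50 after a gene start. These genes had 27 starts, of which HOXC4 and HOXC5 share 1 that is listed under both names. No start overlapped an H3K27ac peak, against 57.8% of the starts of protein-coding genes. HOXB1 was the only HOXB gene with an entry, so HOXB2, the gene that overlapped an H3K27ac peak, was not covered. Except for HOXB1, the starts lay in HOXA, HOXC and HOXD, whose windows held no H3K27ac peak. CTCF overlapped 2 of the 27 starts, in HOXA10 and at an upstream start of HOXA3, against 20.5% of the starts of protein-coding genes. Both sequences are shown because they are the places where a HOX promoter and a CTCF peak met, on the minus strand of chromosome 7 at chr7:27179812-27180111 and chr7:27150901-27151200. Capitals mark a match to the core of the CTCF motif, searched on both strands as CC, then 3 free letters, AG, 2 free letters and GGC.
HOXA10: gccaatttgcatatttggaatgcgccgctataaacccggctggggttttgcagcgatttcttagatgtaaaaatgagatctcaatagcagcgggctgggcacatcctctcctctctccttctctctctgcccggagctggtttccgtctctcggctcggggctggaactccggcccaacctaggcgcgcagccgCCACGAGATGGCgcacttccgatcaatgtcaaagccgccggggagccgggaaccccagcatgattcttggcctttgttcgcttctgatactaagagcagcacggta
HOXA3: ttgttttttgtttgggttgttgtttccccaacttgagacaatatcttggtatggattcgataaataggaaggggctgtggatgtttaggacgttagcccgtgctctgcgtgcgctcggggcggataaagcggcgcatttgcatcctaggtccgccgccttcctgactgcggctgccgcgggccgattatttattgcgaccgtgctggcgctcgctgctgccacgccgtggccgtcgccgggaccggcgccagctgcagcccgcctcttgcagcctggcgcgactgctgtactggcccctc

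The HOXA10 promoter held 1 match, CCACGAGATGGC, from 27179906 to 27179917. Its middle lay 6 bp from the summit of the CTCF peak there, at 27179687 to 27180129 (signal value 173.3). The HOXA3 start lay in the much stronger peak of 284.2 but its 300 letters held no match. The pattern occurred in 4 of the 27 HOX starts (14.8%) and in 12.4% of the starts of protein-coding genes. Over all promoters in the table it occurred in 23% of those overlapping a CTCF peak and in 8.09% of the others. The 3 other matches, shown to compare with that of HOXA10, were not overlapped by a CTCF peak.
HOXA11: CCCTGAGGTGGC
HOXD1: CCGAGAGCAGGC
HOXD10: CCGAGAGGAGGC

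CTCF and H3K27ac peaks did not meet in the clusters, which follows from the H3K27ac values above and is no separate result about CTCF. Of the 34 CTCF peaks, 0 shared a base with H3K27ac (0%, exact 95% binomial interval 0 to 10.3%, counting error only), whereas 28.1% of all CTCF peaks did. The nearest was the peak within HOXB3 from 48585345 to 48585734, 41.6 kb from HOXB2's mark, and the median distance was 115.2 kb, against 7.92 kb over all CTCF peaks.

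Genes that work with or control the HOX genes were read against the same share, 68.8% of all protein-coding genes with an H3K27ac peak. All 9 cofactor genes examined, TALE homeobox genes such as those of the MEIS and PKNOX families whose proteins bind DNA together with HOX proteins, overlapped a peak. The strongest peak of MEIS1, which held 26 peaks across 138.7 kb, had a fold enrichment of 31.7. That of PKNOX1, which held 2 peaks across 59.4 kb, had 18.5. The median over the 9 genes of the highest fold enrichment was 16.7. These genes have a median length of 138.7 kb, against 3.79 kb for the HOX genes, so the shares of these lists are over genes of different length.

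Of the 6 regulators of HOX position, 3 overlapped a peak (50%, exact 95% binomial interval 11.8 to 88.2%). EGR2, a hindbrain factor that controls HOX genes directly, overlapped a peak of fold enrichment 26.3, and GBX2, a factor of the anterior hindbrain, one of 25.9. None of the 3 caudal genes CDX1, CDX2 and CDX4, which set posterior HOX expression, overlapped a peak. In the retinoic acid pathway, the signal that switches on front HOX genes, 9 of 12 genes did (75%), a share near that of all protein-coding genes. The highest fold enrichments were in the receptors RXRB (fold enrichment 36), RARA (30.4) and RARG (22.4). ALDH1A2, which makes retinoic acid, lay 241.2 kb from a peak, and CYP26B1, which degrades it, 376.0 kb, while the degrading enzymes CYP26A1 and CYP26C1 overlapped peaks of 4.97 and 7.37. The Polycomb genes EZH2 (50.4), EED (43.1) and SUZ12 (30.2) and the Trithorax gene KMT2A (18.1) all overlapped a peak, and these 4 genes had a median length of 70.5 kb.

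**Figure D4:**
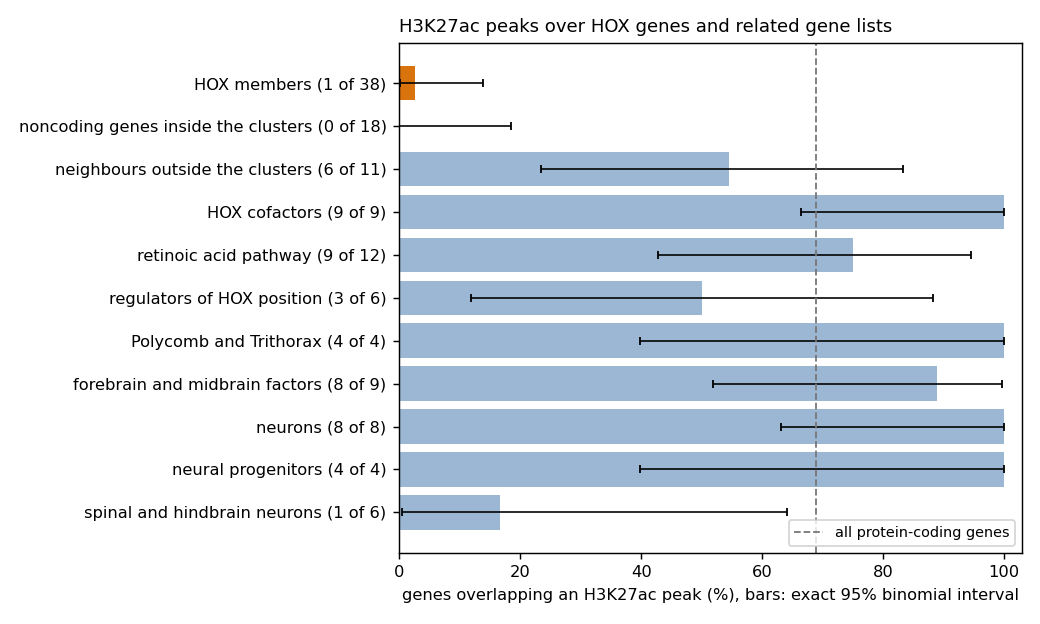
Percent of genes in each list that overlap an H3K27ac peak, with exact 95% binomial intervals that cover counting error only; the dashed line is the share of all protein-coding genes (68.8%), which is no reference for the noncoding genes. HOX genes (2.63%) and noncoding genes within the clusters (0%) have the lowest shares, whereas the HOX cofactors and the neuron and neural progenitor markers all overlap a peak.

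Forebrain and midbrain patterning factors, transcription factor genes of a size closer to that of the HOX genes (median length 6.8 kb), served for comparison. Of these, 8 of 9 overlapped an H3K27ac peak, with fold enrichments from 8.09 in EN2 to 16.2 in OTX1. OTX2 had 9.48 and LHX2 13.4, and EMX1 alone had no peak. Neuron markers, of median length 103.5 kb, overlapped a peak in 8 of 8 cases and progenitor markers in 4 of 4, against 68.8% of all protein-coding genes. Of the 6 genes of spinal and hindbrain neurons, only LMX1B did (fold enrichment 5.45), and MNX1, LBX1, LHX3 and ISL1 were among those that did not. Among markers of other cells, 3 of 4 astrocyte genes, 4 of 5 mesoderm and fibroblast genes, 1 of 4 pluripotency genes and 1 of 4 liver and muscle genes overlapped a peak. The highest fold enrichments among these were 20 in S100B, 14.3 in SLC1A3 and 10.1 in PDGFRB, and no peak overlapped TBXT. Overlap with a peak therefore does not separate the labelled cell type from astrocytes or from mesoderm and fibroblasts. The pluripotency list and the liver and muscle list had lower shares, but over only 4 genes each. The part of any other cells in the HOX values was not tested. No test sets the HOX share apart from that of any list, because there is no spread between samples.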

How the data were processed

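Per the submitters' processing notes, the build was hg38 and cutadapt 1.16 was among the tools; the aligner, peak caller and its settings are not given in the sources used here. Each deposited list has 10 columns per row and no header, covers both libraries of its antibody and holds 0 columns of per-sample values. The deposited CTCF column 7 was read as the authors' peak signal on an unstated scale, and the deposited H3K27ac column as a fold enrichment (ratio) judged from its values. Each deposited list also gives −log10 q and a display score, which was not used. Depth cannot be recovered from them. Values were compared only within a list.

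Gene intervals without strand and promoters with strand came from RefSeq tables of GRCh38.p14, whose chromosomes are those of hg38. All 38 genes matched by symbol in the gene table and 20 in the promoter table. Coordinates are 1-based. Overlap meant at least 1 bp. Distances are bases between the nearest ends. CTCF entries were merged only to measure stretches without a peak and local density. A space between HOX genes was counted after setting aside gene models over 15 kb, which was not done for spaces between other protein-coding genes. Interval code was tested on simulated data, and Python 3.11.15, pandas, numpy and scipy were used. Exact (Clopper-Pearson) intervals at 95% cover counting error only.

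Peaks named are the 3 strongest of each list in each window and those over gene starts or genes; the others described were chosen after their values were seen. The HOX genes and all gene lists were chosen with earlier results of these data known. The gene intervals, flanks, peak thresholds, overlap definitions and 800 bp peaks were varied. Sequences of the peaks themselves and values of the input libraries were not analysed here. Values of some single genes in the lists are not reported here.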

Additional observations from a re-analysis of the deposited data

How the results depend on the processing

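No paired analysis was possible because each list covers both replicates together, and leaving out a replicate was not possible for the same reason. Of 83 alternatives over 28 results, 71 kept the value within 1.5 times or within its interval and 12 moved it. Of the 83, 7 concern CTCF peaks overlapping H3K27ac, which could hardly give another value with so few H3K27ac peaks. Others were fixed in advance. HOXA, HOXC, HOXD and the noncoding genes had no H3K27ac peak, so a narrower window or a shorter list could not change their values. The count of 71 therefore overstates how stable the results are. With flanks of 100 kb the windows held 9 H3K27ac peaks in all (3 with 50 kb), of which 1 was at HOXA, 6 at HOXB and 2 at HOXD. In the strongest 50% of the H3K27ac list, 1 peak was left, in the HOXB window, covering 130 bp, and it lay outside HOXB2, so 0% of HOX genes overlapped one. With gene starts alone, where a strand is given, 0% overlapped H3K27ac and 10% overlapped CTCF; HOXB2 has no entry there. The strongest 50% of the CTCF list left 2 peaks at HOXC. The share of liver and muscle genes with H3K27ac fell from 25% to 0% in the strongest 50%. A list of called peaks cannot show signal below its threshold, and a gene without a peak may carry weak H3K27ac.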

Other observations

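Other homeobox families were read in the same way, in lists added after the data had been seen, beside the 68.8% of all protein-coding genes that overlapped an H3K27ac peak. Of the 6 IRX genes, which form 2 small clusters and act in neural patterning, 4 overlapped an H3K27ac peak, a share of 66.7% near that background, with fold enrichments of 35.5 in IRX5, 27.6 in IRX2, 21.2 in IRX1 and 17.2 in IRX3. Of the 6 DLX genes, which include drivers of GABAergic neurons, the pairs DLX1 and DLX2 and DLX5 and DLX6 overlapped peaks, with 15.5 in DLX1 and 9.04 in DLX6, and DLX3 and DLX4 did not, which is also 66.7%. Among the ParaHox genes GSX1, GSX2, PDX1 and CDX2, the evolutionary sisters of the HOX clusters, only GSX1 overlapped a peak (25%, exact 95% binomial interval 0.631 to 80.6%), at a fold enrichment of 3.42.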
